A study of Mus musculus with 2 samples.

Results

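Lef1 binding was examined at 10 mouse genes that encode β-catenin, members of its destruction complex, its nuclear coactivators and the Groucho corepressors. Every listed Lef1 peak was counted whose nearest base lay inside or within 50 kb of the gene body in mm10. By that rule 3 peaks were found among the 2052 in the list. Peaks lay at 3 of the 10 genes, where 15.5% of all protein-coding genes had one by the same rule. These were Ctnnb1, Gsk3b and Axin1, with 1 peak each, and none lay at Apc, Bcl9, Bcl9l, Tle1, Tle2, Tle3 or Tle4.

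The study used chromatin immunoprecipitation followed by sequencing (ChIP-seq) with the anti-Lef1 antibody C18A7. The peaks come from 1 library of TCRb+, CD4+, CD25- conventional T cells, sorted from spleens of C57BL/6 mice that were wild type and 8 to 10 weeks old, and also gated as GFP-negative. The background is 1 library of TCRb+, CD4+ cells from CD4-Cre+ Lef1 fl/fl mice of the same strain, in which Cre under Cd4 control deletes Lef1 in T cells, immunoprecipitated with the same antibody. The sources used here do not state the age of these control mice or the organ sampled, and they give no CD25 gate for the control cells. Both libraries carry a tissue label of naive CD4 T cells, which peak positions cannot check, since they carry no expression of cell markers. Neither library was replicated, so no difference in the values below has a test.

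Lef1 belongs to the TCF/LEF family of DNA-binding proteins, which end the canonical Wnt pathway in the nucleus. Without a Wnt signal, β-catenin is held by the scaffold proteins Axin and APC, phosphorylated by casein kinase 1 and glycogen synthase kinase 3, and degraded, while TCF/LEF factors recruit Groucho (TLE) corepressors to their target genes. With a signal β-catenin accumulates, enters the nucleus and binds TCF/LEF factors together with coactivators such as BCL9. In T cells Lef1 and its relative Tcf1 are best known for their roles in thymocyte development and in naive and memory T cells.

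Promoter sequences were taken from RefSeq (GRCm38.p6, the assembly that mm10 denotes). Each covers 300 bases, from 250 before the annotated start site to 50 from it on, and 7 of the 10 genes had at least 1, which gave 9 windows. None of the 9 windows was overlapped by a peak, where 0.95% of all 32851 promoter windows were. The windows of Ctnnb1 and Gsk3b are printed because these are the genes with a peak nearby that had a promoter sequence. Those of Axin2, the relative of Axin1, and of Kmt2d are printed because a Lef1 peak lay on them. Kmt2d encodes a histone methyltransferase counted here among the nuclear partners of β-catenin. Of the 80 further pathway genes examined below, 59 had a promoter window. Axin2 and Kmt2d were the only 2 of them with a peak on such a window. The TCF/LEF motif was searched as CTTTGAT or CTTTGAA on both strands, and its core as CTTTG on both strands, so that every match to the first also holds the second. Capitals mark the core in Gsk3b and the 7-letter motif in Kmt2d. The sequences read 5′ to 3′ on the strand of the gene.
Ctnnb1 (chr9:120933150-120933449, plus strand): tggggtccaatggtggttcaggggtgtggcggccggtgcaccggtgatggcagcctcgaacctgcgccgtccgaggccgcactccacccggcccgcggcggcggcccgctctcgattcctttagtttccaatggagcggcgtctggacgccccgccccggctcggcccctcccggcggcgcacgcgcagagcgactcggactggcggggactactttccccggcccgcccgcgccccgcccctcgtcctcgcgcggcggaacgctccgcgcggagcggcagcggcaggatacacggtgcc
Gsk3b (chr16:38088751-38089050, plus strand): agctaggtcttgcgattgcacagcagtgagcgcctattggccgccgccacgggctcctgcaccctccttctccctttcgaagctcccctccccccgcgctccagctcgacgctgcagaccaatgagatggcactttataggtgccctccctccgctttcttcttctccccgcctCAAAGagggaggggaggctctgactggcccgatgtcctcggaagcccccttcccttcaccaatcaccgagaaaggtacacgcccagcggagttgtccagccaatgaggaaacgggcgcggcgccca
Axin2 (chr11:108920099-108920398, plus strand): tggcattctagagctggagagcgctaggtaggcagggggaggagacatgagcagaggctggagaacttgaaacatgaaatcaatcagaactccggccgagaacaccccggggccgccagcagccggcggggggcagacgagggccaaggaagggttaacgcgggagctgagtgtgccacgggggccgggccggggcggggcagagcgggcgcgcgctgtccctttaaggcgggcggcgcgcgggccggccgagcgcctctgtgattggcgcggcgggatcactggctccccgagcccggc
Kmt2d (chr15:98871156-98871455, minus strand): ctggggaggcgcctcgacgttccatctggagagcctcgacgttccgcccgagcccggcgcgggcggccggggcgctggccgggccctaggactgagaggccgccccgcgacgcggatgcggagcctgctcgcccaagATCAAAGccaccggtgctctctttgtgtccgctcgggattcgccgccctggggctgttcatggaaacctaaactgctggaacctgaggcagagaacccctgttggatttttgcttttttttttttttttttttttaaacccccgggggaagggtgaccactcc

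None of the 9 promoter windows of the 10 genes held the 7-letter motif, which 8.65% of all promoter windows held. The core was in 1 of the 9, that of Gsk3b, where it began 76 bases before the start site, against 53.9% of all windows. Ctnnb1 and Tle4 each account for 2 of the 9 windows, and those of Ctnnb1 overlap, so the 9 are not separate observations. Among the 312 windows overlapped by a peak, 23.1% held the 7-letter motif and 55.8% the core. These windows were overlapped by 258 peaks, so some windows share a peak. A match could lie anywhere in the window, inside the peak or outside it. A missing match says only that these letters are not in this window.

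Ctnnb1, the gene of β-catenin, had its peak outside the gene. The peak lay at chromosome 9, 120896130 to 120896185, and its nearest base was 37.2 kb from the gene body, on its low-coordinate side (120933400 to 120960507). Since Ctnnb1 is transcribed towards higher coordinates, the peak lay upstream of the annotated start site. With 56 bp it was among the narrowest of the list, of which 91.9% of peaks were wider. Its deposited score, a −log10 p by the file header, was 4.25. The same score was held by 202 peaks, and 1571 scored higher.

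Ctnnb1 was the nearest protein-coding gene to that peak, and the next, Ulk4, which encodes a relative of the kinases that start autophagy, lay 68.3 kb away. RefSeq places 7 long non-coding RNA genes nearer to the peak than Ctnnb1. Of these, 4 lie between the peak and Ctnnb1, with Gm51664 the nearest at 4.16 kb, and 3 lie on the far side of the peak.

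Gsk3b, which encodes glycogen synthase kinase 3β, the kinase that marks β-catenin for degradation, had its peak deep inside the gene. It lay at chromosome 16, 38197430 to 38197516, 108.5 kb downstream of the annotated start site in a gene body of 157.1 kb (38089001 to 38246084). That is 69.1% of the way from the low-coordinate end. Its score of 4.94 was the highest of the 3 peaks and the only one of them above the median of the list (4.40), although 538 peaks (26.2%) scored higher. The peak was 87 bp wide, against a median of 79 bp over the list. No other protein-coding gene lay within 50 kb. The next, Nr1i2, which encodes the pregnane X receptor, was 50.8 kb away.

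Axin1, the scaffold on which the destruction complex assembles, had its peak near the low-coordinate end of the gene. It lay at chromosome 17, 26138569 to 26138705, 7.42 kb inside a body of 64.6 kb (26131217 to 26195811). At 137 bp it was the widest of the 3 peaks, with 21.9% of the list wider still, and at 4.17 it had the lowest score, with 1825 peaks higher. It also lay within Gm46600, a long non-coding RNA gene at 26136785 to 26138752, and ended 47 bp from the high-coordinate end of that gene. The neighbourhood was dense in genes, with Mrpl28, a mitochondrial ribosomal protein gene, 12 kb away and Pgap6, Nme4 and Decr2 also within 50 kb of the peak. Exons and introns were not used here, so positions inside genes are given as distances.

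Apc, the other scaffold of the complex (chromosome 18, 34220297 to 34322190), had no peak within 50 kb. The nearest lay 130.7 kb below it, with a score of 4.40, and was nearer to Epb41l4a. Among all protein-coding genes, 29.2% had a peak as near or nearer. Of the 3 destruction complex genes, 2 had a peak, against the 15.5% of all protein-coding genes.

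**Figure D1:**
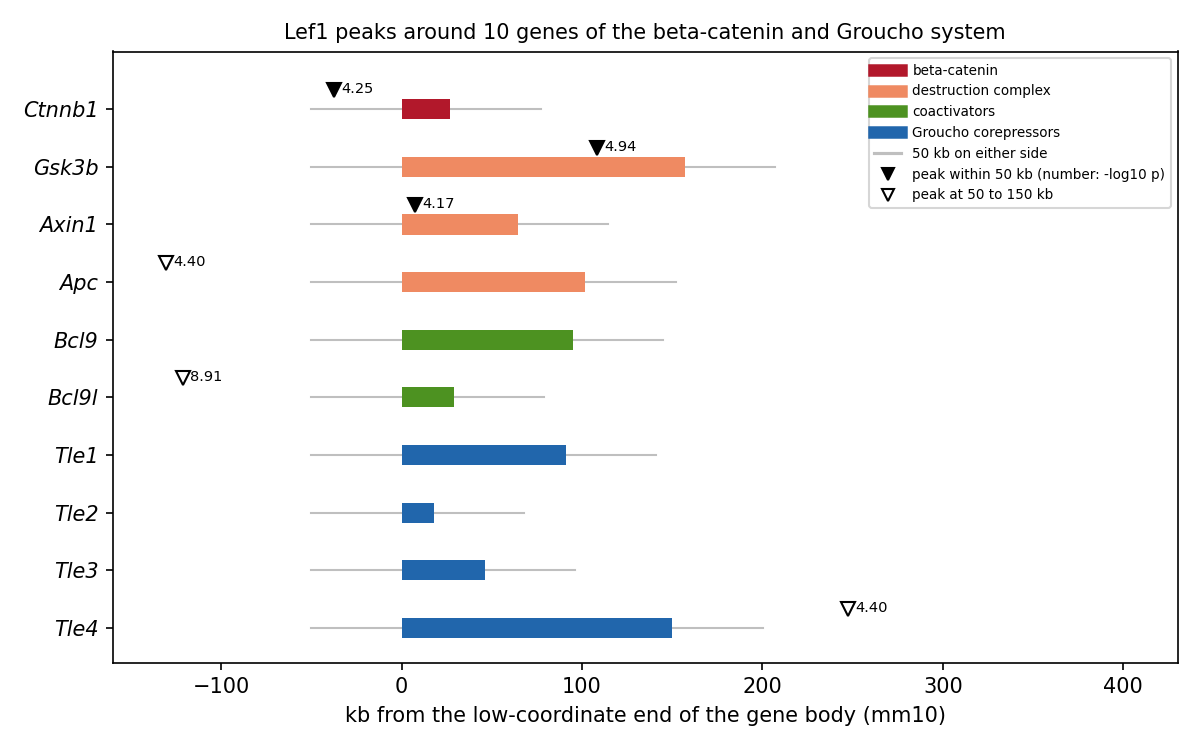
Gene bodies of the 10 genes (coloured bars, by role) with 50 kb on either side (grey lines), drawn to scale in kb from the low-coordinate end, and Lef1 peaks (triangles) with their deposited −log10 p. Filled triangles stand at Ctnnb1 (4.25), Gsk3b (4.94) and Axin1 (4.17), while the peaks nearest to Apc, Bcl9l and Tle4 lie further than 50 kb out.

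The 2 coactivator genes had no peak, where 15.5% of all protein-coding genes had one. Bcl9 and Bcl9l encode related adaptors that link β-catenin to Pygopus proteins. The nearest peak to Bcl9 (chromosome 3, 97203658 to 97298402) was 463.7 kb away and lay inside Pde4dip, with a score of 4.40. The nearest to Bcl9l (chromosome 9, 44482738 to 44511906) was 120.9 kb away and lay inside Vps11, which encodes a subunit of a vesicle tethering complex. That peak had a score of 8.91, which 54 peaks exceeded, and a width of 215 bp. For Bcl9 60.5% of protein-coding genes had a peak as near or nearer, and for Bcl9l 27.9%.

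The 4 Groucho genes had no peak either, where 15.5% of all protein-coding genes had one, and their distances to the nearest peak were spread widely. Their products do not bind DNA themselves and are brought to genes by TCF/LEF factors and other repressors. Tle4 (chromosome 19, 14448072 to 14598183) was the closest, with a peak of 4.40 and 138 bp at 14695532 to 14695669. This peak was 97.3 kb beyond the high-coordinate end, upstream of the annotated start site, and Tle4 was its nearest protein-coding gene. It is the first peak outside the 50 kb limit, while that of Ctnnb1 at 37.2 kb is the last inside it.

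For the other Groucho genes the nearest peak was at or closer to another gene. Tle2 (chromosome 10, 81574739 to 81592581) had one 253.6 kb away, inside Cactin, with a score of 4.14. Tle3 (chromosome 9, 61372326 to 61418497) had one 279.5 kb away, at 61698016 to 61698223. That peak scored 11.34, which only 22 peaks of the list exceeded, and its nearest protein-coding gene, Rplp1, was itself 215.1 kb from it. Tle1 (chromosome 4, 72109945 to 72200989) was the furthest, with no peak within 2.13 Mb, and 92.6% of protein-coding genes had a peak as near or nearer. For Tle2 and Tle3 that share was 44.1% and 46.6%, for Tle4 24.2%.

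A count of 3 genes in 10 is small. As a share it was 30% (95% exact binomial interval 6.67 to 65.2%, counting error only), against 15.5% of 21887 protein-coding genes by the same rule, a value inside that interval. Peaks overlapped the body of 2 of the 10 genes, Gsk3b and Axin1, against 4.51% of all protein-coding genes, and no further one came within 10 kb, where the share of all genes was 7.33%. Within 100 kb, where 24.6% of all genes had a peak, Tle4 made it 4 of 10. The windows of the 10 genes held 1.69 peaks per Mb (95% exact Poisson interval 0.348 to 4.93), against 0.989 per Mb in the windows of all protein-coding genes.

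The 10 genes were longer than most, with a median body of 77.8 kb against 17.2 kb for all protein-coding genes, and longer genes had peaks more often. When all genes were split by length into 4 equal groups, 19.7% had a peak in the longest group, which held 7 of the 10 genes, 2 of them with a peak. The other 3 were in the next group, where 17.1% had a peak, and 1 of them, Ctnnb1, had one. In the shortest group the share was 9.08%. The part of gene length in the count was not tested.

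**Figure D2:**
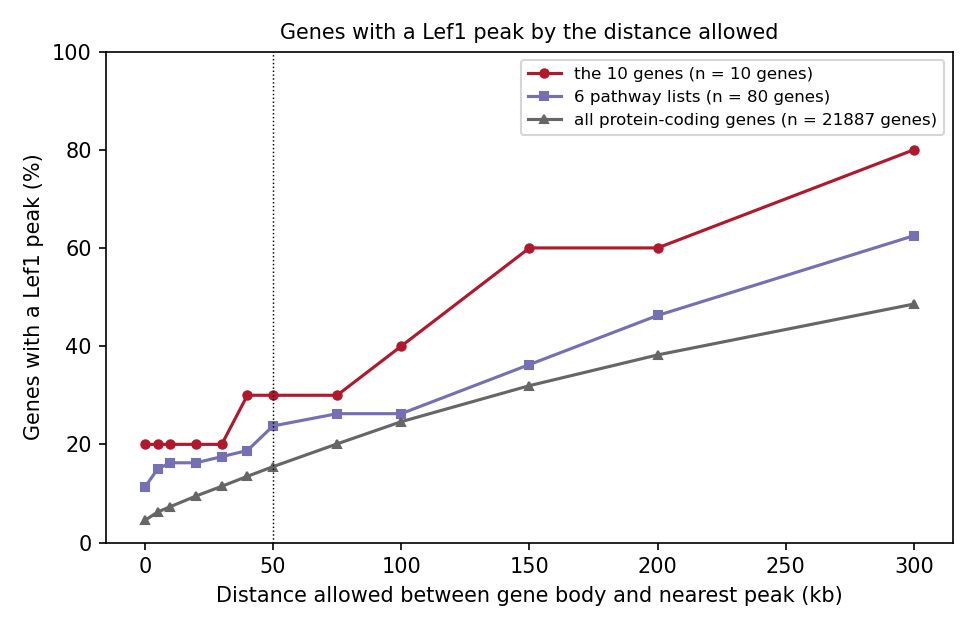
Percentage of genes with a Lef1 peak (vertical axis) against the distance allowed between gene body and peak in kb (horizontal axis) for the 10 genes, the 80 genes of 6 pathway lists and all protein-coding genes. The 10 genes stand at 20% for overlap with the body, 30% at 50 kb (dotted line) and 80% at 300 kb, so that each step of their line is 1 or 2 genes.

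The 3 peaks scored near the low end of the range of the list, although only 26.2% of peaks scored above that of Gsk3b. Their scores had a median of 4.25 and a range of 4.17 to 4.94, against a median of 4.40 and a range of 4.01 to 38.17 for the whole list, and their widths of 56, 87 and 137 bp compare with a range of 55 to 1141 bp. The lowest 2 lay below the score of 4.40 that 828 peaks share.

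**Figure D3:**
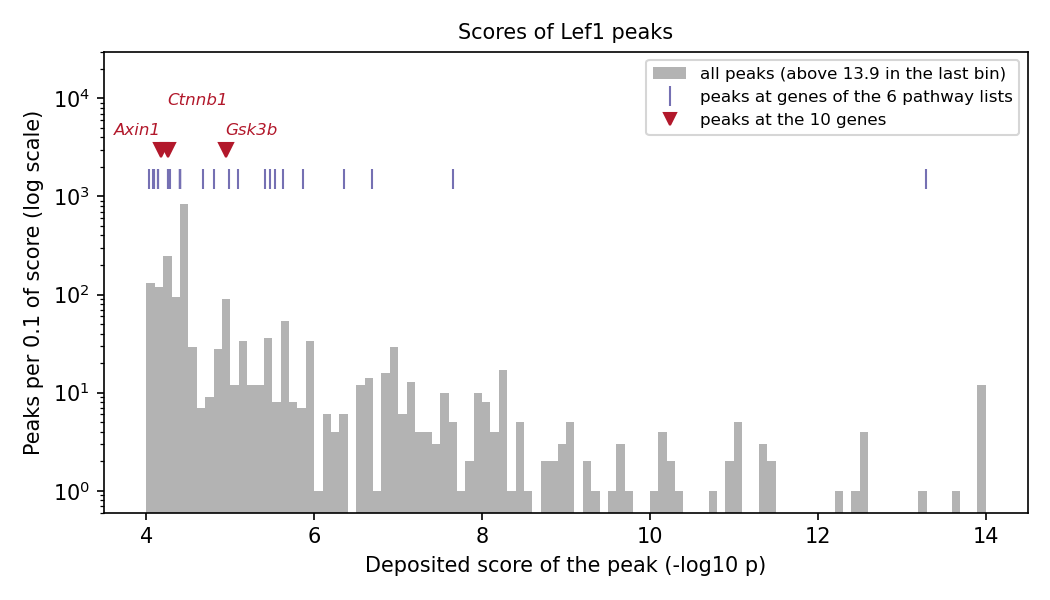
Number of Lef1 peaks (vertical axis, log scale) by deposited −log10 p (horizontal axis, bins of 0.1), with the peaks at the 10 genes as red triangles and those at genes of the pathway lists as purple ticks. The peaks at Axin1, Ctnnb1 and Gsk3b sit between 4.17 and 4.94, at the low end, where most of the list lies.

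The same rule was applied to 80 further genes of the pathway in 6 lists. A peak lay at 19 of them, or 23.8% (95% exact binomial interval 14.9 to 34.6%), against the 15.5% of all protein-coding genes, a value inside that interval. Without the TCF/LEF genes it was 16 of 76 (21.1%, 12.5 to 31.9%). The windows of the 80 genes held 1.99 peaks per Mb (95% exact Poisson interval 1.34 to 2.84, counting error only). In the windows of all protein-coding genes it was 0.989 per Mb, a value outside that interval. The 80 genes include the TCF/LEF genes, some with several peaks each, and the lists were chosen with earlier results of these data known. The 80 genes had a median body of 42.7 kb, against 17.2 kb for all protein-coding genes, and the part of gene length was not tested. Of the 19 genes, 9 had a peak overlapping the body, which is 11.25% of the 80, against 4.51% of all protein-coding genes. At 8 of the 19 every peak had another protein-coding gene nearer to it. With each peak given only to its nearest gene, 11 of the 19 kept a peak. By that rule 1480 of the 3384 protein-coding genes with a peak kept one.

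Among further genes of the destruction complex and its regulators, 5 of 18 (27.8%) had a peak, against 15.5% of all protein-coding genes. Axin2 is the relative of Axin1 and itself a Wnt target. Both scaffold genes had a peak over the body, but at Axin1 it scored 4.17 over 137 bp, while at Axin2 the higher of 2 neighbouring peaks scored 5.86 over 1141 bp. That Axin2 peak covered 193 of the 300 bases of the promoter printed above, from 143 bases before the start site onwards, and this window held neither the motif nor its core. Gsk3b had its peak inside the gene, and Gsk3a, the other gene of the kinase, had 2 at 41.4 kb (4.09) and 44.1 kb (4.14), both inside Cic, the gene of a repressor of the HMG-box class.

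Csnk1a1, which encodes the casein kinase 1α that primes β-catenin for Gsk3, had a peak over its body (4.40) and another at 31.7 kb (4.25) inside Arhgef37. Siah1a, a ubiquitin ligase gene, had 1 over its body (4.25), and Ppp2r5a, which encodes a regulatory subunit of protein phosphatase 2A, had 1 at 49.2 kb (5.09). Apc2, the relative of Apc, had none, with its nearest peak 128.1 kb away, similar in distance to the 130.7 kb of Apc.

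Among nuclear coactivators and partners of β-catenin 3 of 15 genes (20%) had a peak, against 15.5% of all protein-coding genes. At Kmt2d a peak of 5.48 (chromosome 15, 98871250 to 98871367) lay wholly within the promoter window printed above, from 162 to 45 bases before the start site. The ATCAAAG marked there, the reverse complement of CTTTGAT, began 113 bases before the start site and lay inside the peak, at 98871312 to 98871318. Kmt2d also had peaks of 6.35 and 4.04 at 44.0 and 44.3 kb, both nearest to Lmbr1l. Smarca4, the ATPase of a chromatin remodelling complex, had 1 over its body (4.14), and Crebbp, a histone acetyltransferase gene, had 1 at 44.2 kb (4.40) that lay inside Dnase1.

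Groucho relatives and other corepressors had peaks at 2 of 14 genes (14.3%, against 15.5% of all protein-coding genes), both histone deacetylase genes. Hdac1 had 1 at 32.7 kb (4.67), nearer to Fam167b, and Hdac3 had 1 at 1.43 kb (4.14) that lay inside Diaph1. The short Groucho relative Tle5 and the divergent Tle6 had none, with nearest peaks 238.3 and 269.8 kb away, within the range of 97.3 kb to 2.13 Mb at Tle1 to Tle4.

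Of the TCF/LEF factors, to which β-catenin and Groucho proteins bind, 3 of 4 genes had a peak, against 15.5% of all protein-coding genes. Tcf7 had 4 with a highest score of 6.68, Lef1 had 3 with a highest of 7.65, and Tcf7l2 had 2, at 13.29 and 5.63, while Tcf7l1 had none. Tcf7, Lef1 and Tcf7l2 each had at least 1 peak that scored above the 4.94 of Gsk3b. Lef1 is also the gene deleted in the control cells, and whether its peaks lie in the deleted stretch was not tested.

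Wnt receptors and dishevelled adaptors had peaks at 5 of 21 genes (23.8%, against 15.5% of all protein-coding genes), none above a score of 4.40. The receptor gene Fzd7 had 1 over its body (4.40). Fzd4 had 1 at 25.3 kb (4.40), inside Tmem135, and the coreceptor gene Lrp5 had 1 at 8.58 kb (4.09), next to Ppp6r3. Lgr4, which encodes a receptor of R-spondins, had 1 at 3.59 kb (4.40), inside Ccdc34, and the adaptor gene Dvl2 had 1 at 41.6 kb (4.40), inside Asgr1.

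Of the catenins and cadherins of cell junctions 1 of 8 genes (12.5%) had a peak, against 15.5% of all protein-coding genes. This gene was Ctnnd1, which encodes p120 catenin, with its peak at 4.54 kb (4.99). Jup, the gene of plakoglobin and the closest relative of Ctnnb1, had its nearest peak at 50.1 kb, just past the limit, against 37.2 kb for Ctnnb1.

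**Figure D4:**
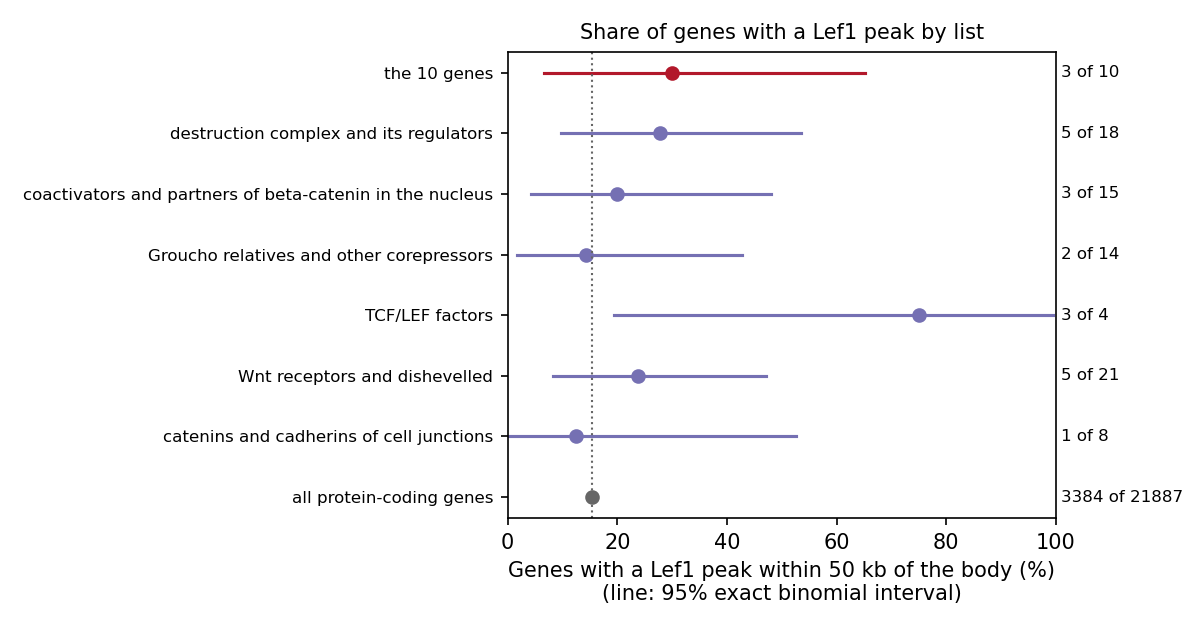
Percentage of genes with a Lef1 peak within 50 kb of the body (points) with 95% exact binomial intervals (lines) for the 10 genes, the 6 pathway lists and all protein-coding genes, whose 15.5% is the dotted line. The line of the TCF/LEF factors (3 of 4 genes) lies wholly above 15.5%, and those of the 10 genes and of the other 5 lists cross it. The lists were chosen with earlier results of these data known, so the position of a line is a description and no test. Lef1, the gene deleted in the control cells, is among the TCF/LEF genes with a peak. These 4 TCF/LEF genes are long, with a median body of 138.4 kb. Their interval of 19.4 to 99.4% includes the 19.7% of the longest group of all genes, and the part of gene length was not tested.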

How the data were processed

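The deposited list holds each peak's position and its score, the −log10 p of the peak caller per the file headers. Per the submitters' processing notes the authors used FastQC, Bowtie2 2.3.4.1 and MACS2 2.1.1 with mm10. Apart from a p-value cutoff in the name of the deposited list, their parameters are not stated. The lowest score in the list is 4.01, so the peaks at Axin1 and Ctnnb1 lie close to the cutoff. Per the labels the Lef1-deficient library served as the control of the peak calls, so peaks come from 1 library and a score does not measure reproducibility. Read depth is unknown.

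Positions are 1-based, with 1 added to each listed start on the assumption of the BED convention. Genes came from the RefSeq table of GRCm38.p6, with 21887 protein-coding genes on the nuclear chromosomes, and a peak could count for several genes. Distances ran from the nearest base of a peak to the gene body. No genome sequence was used here, so the planned motif search inside peaks was replaced by a search of RefSeq promoter windows. All 10 genes and every pathway gene with a peak are named, and of the protein-coding genes nearer to a pathway peak the nearest one. No protein-coding gene was nearer to the 3 peaks at the 10 genes. Long non-coding RNA genes were named after their positions were seen. Genes and lists were chosen with earlier results of these data known. Counts and intervals (95%, exact) are descriptions of counting error, with no tests. Assignment was checked on 200 planted peaks (Python 3.11.15, pandas 2.3.3, SciPy 1.17.1).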

Additional observations from a re-analysis of the deposited data

How the results depend on the processing

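Of 35 repeats under 7 alternatives 21 gave a count within 1.5 times the one reported or the same median score to 2 decimals, a wide tolerance for counts this small. The 10 genes with a peak numbered between 1 and 4. Overlap with the body or a limit of 10 kb left Gsk3b and Axin1, with a median score of 4.56, and 100 kb added Tle4, with a median of 4.33. Peaks above the median score left 1 gene and 1 peak, Gsk3b at 4.94. All protein-coding genes with a peak numbered 3384, against 1604 within 10 kb, 5388 within 100 kb, 987 by overlap, 1480 with each peak given only to the nearest gene and 1278 with peaks above the median score. Pathway genes with a peak numbered 19, against 9 by overlap, 11 by the nearest gene and 8 with peaks above the median score. Peak centres in place of nearest bases, and merging of peaks within 1 kb, moved neither of the counts of 3 and 19 genes. No paired analysis was possible because there is a single library per genotype, so no replicate could be left out either. Motif searches inside peaks were not run. At unknown depth, the lack of a peak means only that none passed the threshold of this list.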
